A study of Homo sapiens with 18 samples.

Results

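Ribosome biogenesis and nucleolar genes were followed in newly made RNA of MDA-MB-453 cells. The 47 genes were a fixed list of factors that build ribosomes, many of them targets of the transcription factor MYC, and 42 of the 47 were found by gene ID among the 12755 gene IDs of the deposited table. Of these, 41 passed the filter on low values, a mean of at least 10 units over the 18 libraries, as did 10191 gene IDs in all. NOP14 was in the table below that filter, and no interval matched UTP3, UTP14A, NOP16, BOP1 or RRS1, which are not analysed here.

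Ribosomes are put together in the nucleolus, where RNA polymerase I makes the long precursor of the ribosomal RNAs. Small nucleolar ribonucleoproteins (snoRNPs) modify the precursor, box C/D particles by methylation and box H/ACA particles by pseudouridylation, and large protein assemblies fold and cut it into the parts of the small and the large subunit. The proteins of these assemblies are encoded by ordinary polyadenylated mRNAs made by RNA polymerase II. MYC is known to raise the transcription of many of these genes, and BET proteins, which bind acetylated chromatin, are known to sustain transcription of MYC itself in many tumour cells.

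MDA-MB-453 is an established breast cancer line. All 10 luminal breast markers that were looked up were in the table. Of 12 further markers, of other lineages apart from ESR1, 9 were not found. ESR1 was below the filter, and 2, COL1A1 and ALB, passed it. Cells received the BET degrader JQ1-VHL for 3 hours, or DMSO, its solvent control, and all groups had 0.1 mM 4-thiouridine in the final 60 minutes. In the titles of the samples the drug appears as dBET. Nuclear, total and cytoplasmic RNA were each sequenced as 3 libraries under JQ1-VHL and 3 under DMSO. Labelled RNA reads as T-to-C changes, and values are T-to-C reads scaled to ERCC RNA, called units, summed over the numbered intervals of a gene. ERCC RNA was added by mass of recovered RNA, so a unit is relative to RNA mass and not to cells. In such bulk samples a change in new RNA and a change in the RNA mass it is set against cannot be told apart. Units give no measure of cell number or of new RNA per cell.

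Each library held between 1584517 and 6773386 T-to-C reads, and 1 read was worth 0.470 to 2.75 units. JQ1-VHL nuclear replicate 3 was the shallowest of them. The tested members had between 410 reads (NOP10) and 124013 reads (NPM1) over all 18 libraries. They took 0.532 ± 0.110% of the reads of JQ1-VHL nuclear libraries and 0.615 ± 0.104% of those of DMSO nuclear libraries (SD, n = 3 each). The corresponding shares were 0.601 ± 0.0629% and 0.671 ± 0.0739% in total RNA, and 0.640 ± 0.0875% and 0.745 ± 0.0274% in cytoplasmic RNA. MYC, the regulator named with the list, had 4.79, 7.75 and 2.38 units in JQ1-VHL nuclear libraries, against 181, 264 and 249.7 units in DMSO nuclear libraries. Its nuclear log2 change was -5.37 ± 1.00 (SE, limma adjusted p = 3.93e-05), and it also fell in total RNA (-3.96 ± 1.00, limma adjusted p = 0.0114) and in cytoplasmic RNA (-4.71 ± 1.00, limma adjusted p = 0.00091).

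Promoter sequences of 38 of the 47 members were found in RefSeq (GRCh38.p14). MYC with its partner MAX binds the E-box CACGTG, which reads the same on both strands, so that motif was looked for in the 250 bases before each gene start. It was present in 6 of 38 member promoters (15.8%), against 7.84% of 15842 promoters of protein-coding genes and 9.16% of the 7665 whose gene was tested. GGGCGG, the GC box, searched on both strands, was in 76.3% of member promoters, 56.0% of all and 69.4% of those whose gene was tested. CCAAT, searched on both strands, was in 36.8%, 34.5% and 36.1%, and TATAAA, searched on both strands, was in 2.63%, 9.23% and 4.50%, in the same order. A match describes these letters and not binding. The stretches below lie outside annotated exons and are written 5′ to 3′ on the gene's strand, with the E-box in capitals. The first 4 belong to members that hold the box, whose nuclear results differed: SRM and NOP10 fell, UTP18 was not called, and UTP20 rose relative to the typical gene, as given below. UTP4, the other tested member with the box, fell on both scales, and its box lies in an annotated exon and is not shown. GAR1 and UTP6, which have no E-box in the 250 bases, had the lowest and the highest nuclear log2 change of all members.
SRM, chr1:11060165-11060264, minus strand: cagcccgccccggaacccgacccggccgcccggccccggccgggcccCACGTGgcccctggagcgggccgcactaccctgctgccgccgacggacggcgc
NOP10, chr15:34343215-34343314, minus strand: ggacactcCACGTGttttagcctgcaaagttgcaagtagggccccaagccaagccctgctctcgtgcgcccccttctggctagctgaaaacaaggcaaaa
UTP18, chr17:51260410-51260509, plus strand: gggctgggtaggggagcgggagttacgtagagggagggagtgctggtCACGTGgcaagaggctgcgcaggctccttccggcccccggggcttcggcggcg
UTP20, chr12:101280005-101280104, plus strand: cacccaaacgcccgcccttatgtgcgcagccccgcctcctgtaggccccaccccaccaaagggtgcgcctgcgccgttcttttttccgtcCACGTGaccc
GAR1, chr4:109815411-109815509, plus strand: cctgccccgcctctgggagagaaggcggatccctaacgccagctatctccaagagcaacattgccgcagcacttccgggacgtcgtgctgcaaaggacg
UTP6, chr17:31901766-31901865, minus strand: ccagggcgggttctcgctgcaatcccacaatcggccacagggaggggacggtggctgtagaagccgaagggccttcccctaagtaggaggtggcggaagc

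Nuclear new RNA of the members was lower under JQ1-VHL on the ERCC scale, to about the same degree as that of other genes. All 41 fitted log2 changes were negative, and 17 members fell past the threshold (limma, Benjamini-Hochberg adjusted p under 0.05 over all 10191 genes), with 0 higher. That is 41.5% of the members, beside 33.7% of all genes tested that fell. The members' median log2 change was -1.74, against -1.82 for all genes. The log2 changes of the 17 ran from -4.03 to -2.14, and those of the other 24 from -1.85 to -0.48 (limma adjusted p from 0.0658 to 0.596). In the same-numbered pairs of libraries the members' median log2 change was -2.21, -0.49 and -2.47, and that of all genes was -2.23, -0.72 and -2.42. The calls rested on single libraries: 0 of the 17 remained without JQ1-VHL nuclear replicate 3, and 2, SRM and GAR1, remained without DMSO nuclear replicate 1. The loss was general, since the share of all genes called lower was then 2.24% and 2.95%. When each gene was instead measured by the interval with the highest mean, the order of the shares turned, with 19.5% of the members lower beside 24.7% of all genes, and medians of -0.98 and -1.39. The fit estimated 1 spread for each gene over all 18 libraries, so total and cytoplasmic libraries also weigh on the nuclear p-values. Without DMSO cytoplasmic replicate 2, all 17 calls remained and 8 more members fell past the threshold, beside 5308 of 10191 genes. Nothing in the labels tells whether the replicates came from different cultures, so these p-values measure only the spread between the samples. An exact permutation test of 3 against 3 cannot give a p below 0.10.

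Because the typical nuclear gene was lower on the ERCC scale, each member was also set against it. For this, the values of each library were divided by 1 size factor, which moved the median nuclear log2 change of all genes to -0.01. The factor was the median ratio to the gene's geometric mean, over tested genes with reads in all 18 libraries. GAR1 and NOP10, with no read in JQ1-VHL nuclear replicate 3, did not enter it. On that rescaled measure the members moved apart: 11 rose and 7 fell, with a median of 0.12. These were 26.8% and 17.1% of the members, beside 18.2% of all genes that rose and 12.6% that fell, and no test of the list as a whole was made. The members that rose were UTP6, NPM1, DDX10, NHP2, UTP20, DDX18, NOP58, NOP56, DDX56, DDX21 and NOL11, at log2 changes of 1.39 to 0.44. Those that fell were GAR1, SRM, NOP10, RRP9, DKC1, MYBBP1A and UTP4, at -3.05 to -1.38. Single libraries decided most of the falls. Without JQ1-VHL nuclear replicate 3, GAR1 and SRM kept their call of 7, and without DMSO nuclear replicate 1, 3 of 7 did (GAR1, RRP9 and SRM). Over all 10191 genes the falls called were then 757 and 678, beside 1281 with all libraries. Of the 11 rises, at least 8 held whichever single library was left out, and the calls lost in 1 or more of these fits were DDX21, DDX56, NOL11, NHP2 and UTP20. With edgeR and TMM scaling on the recovered reads, 8 members were higher and 9 lower, beside 14.8% and 15.9% of all genes. DDX21, DDX56 and NOL11 were not called in that fit. Rises and falls below are called relative to the typical gene where they rest on the rescaled measure, and on the ERCC scale none of the 11 was higher.

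**Figure D1:**
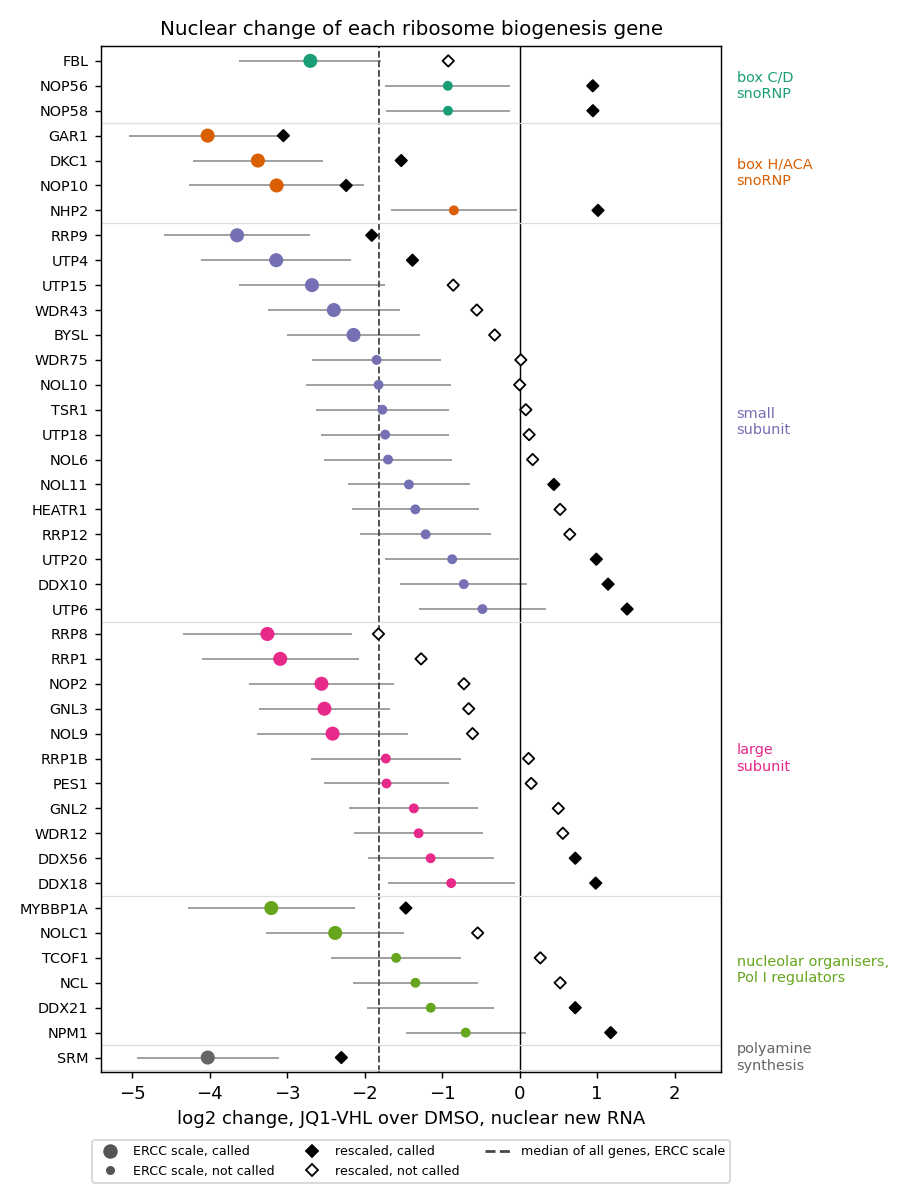
Nuclear log2 change of each of the 41 tested members, JQ1-VHL over DMSO, grouped by role. Circles are the ERCC-scale estimates with bars of 1 SE, large where called; diamonds are the rescaled estimates, filled where called; the dashed line is the ERCC-scale median of all genes, -1.82. Every circle lies below 0, while the diamonds fall on both sides of it, from GAR1 (-3.05) to UTP6 (1.39).

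Of the 3 box C/D proteins, FBL fell on the ERCC scale (33.3%, beside 33.7% of all genes). NOP56 and NOP58 were not called there and rose relative to the typical gene. FBL, the methyltransferase of the particle, had 56.9, 40.7 and 4.28 nuclear units under JQ1-VHL, against 323, 129.7 and 81.8 units under DMSO. The groups did not overlap, and replicate 3 was far below the other JQ1-VHL libraries. How many of all genes had groups without overlap was not counted, here or for the members below. FBL fell by 2.70 on the log2 scale (SE 0.91, limma adjusted p = 0.018), but its rescaled change was -0.92 (limma adjusted p = 0.122), and on the ERCC scale it was -1.63 without JQ1-VHL nuclear replicate 3 (limma adjusted p = 0.282) and -2.16 without DMSO nuclear replicate 1 (limma adjusted p = 0.164). NOP58, a scaffold protein of the same particle, had 651, 826 and 343 units under JQ1-VHL and 2224, 793 and 716 under DMSO, where JQ1-VHL replicate 2 lay above DMSO replicates 2 and 3. Its ERCC-scale log2 change was -0.92 ± 0.80 (limma adjusted p = 0.314), and relative to the typical gene it rose by 0.95 (SE 0.23, limma adjusted p = 0.0057). NOP56, the partner scaffold, had the closely similar values of -0.93 on the ERCC scale, which was not called, and 0.94 after rescaling (limma adjusted p = 0.00149).

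Within a library, a ratio of reads of 2 genes needs no scaling, and such ratios were taken for pairs within a particle or role, chosen after the values were seen and given with no test. Per 100 nuclear reads of NOP58, FBL had 8.75, 4.93 and 1.25 reads under JQ1-VHL, against 14.5, 16.3 and 11.4 under DMSO. All JQ1-VHL libraries were thus below all DMSO libraries, whatever factor scales a library.

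Of the 4 box H/ACA proteins, which also bind telomerase RNA, GAR1, DKC1 and NOP10 fell on both scales, and NHP2 rose relative to the typical gene. The falls were 75.0% of this small group, beside 33.7% of all genes on the ERCC scale and 12.6% after rescaling. GAR1, a core protein of the particle, had 12.2, 4.52 and 0 nuclear units under JQ1-VHL, from 23, 7 and 0 reads, against 117, 42.1 and 61.1 units under DMSO. The groups did not overlap, and JQ1-VHL replicate 3 held no read. Its log2 change was -4.03 ± 1.01 (limma adjusted p = 0.00231) on the ERCC scale and -3.05 ± 0.76 after rescaling (limma adjusted p = 0.00584), both with a pseudocount of 1 that weighs on values this low; with a pseudocount of 0.1 the ERCC-scale change was -5.23. DKC1, the pseudouridine synthase, had 246, 349 and 18.1 units under JQ1-VHL and 2772, 894 and 744 under DMSO, again without overlap. It fell by 3.38 (SE 0.84, limma adjusted p = 0.00211) on the ERCC scale and by 1.53 relative to the typical gene (SE 0.47, limma adjusted p = 0.0203). NOP10, the smallest of these proteins, had 5.85, 1.29 and 0 units under JQ1-VHL and 32.8, 21.3 and 13.2 under DMSO, and fell by 3.14 (SE 1.13, limma adjusted p = 0.024). After rescaling it fell by 2.24 (SE 0.79, limma adjusted p = 0.0392), a call lost in 7 of the 18 fits that left out 1 library and with edgeR and TMM scaling (edgeR adjusted p = 0.108).

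NHP2, the remaining core protein, had 127, 169 and 62.2 units under JQ1-VHL and 252, 199 and 157 under DMSO, so JQ1-VHL replicate 2 exceeded DMSO replicate 3. Its ERCC-scale log2 change was -0.85 ± 0.81 (limma adjusted p = 0.36), and relative to the typical gene it rose by 1.01 (SE 0.29, limma adjusted p = 0.0148). That rise was lost without JQ1-VHL nuclear replicate 3 or without DMSO nuclear replicate 1, and the gene overlaps RMND5B. Per 100 nuclear reads of NHP2, GAR1 had 9.66, 2.68 and 0 reads under JQ1-VHL and 46.4, 21.1 and 39.0 under DMSO, and DKC1 had 194, 207 and 29.01 under JQ1-VHL and 1099, 448 and 475 under DMSO. Both ratios were lower in every JQ1-VHL nuclear library than in any DMSO nuclear library, and likewise in total RNA. In cytoplasmic RNA the groups overlapped for both ratios. On the ERCC scale the falls in this group did not outlast the omission of JQ1-VHL nuclear replicate 3, where GAR1 was at -2.99 (limma adjusted p = 0.0868), DKC1 at -2.06 (0.162) and NOP10 at -2.47 (0.204). Without DMSO nuclear replicate 1, GAR1 kept its call at -3.63 (limma adjusted p = 0.0497), and DKC1 (-2.79) and NOP10 (-2.83) did not. NOP10 also lost it without DMSO nuclear replicate 2 (limma adjusted p = 0.0632).

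**Figure D2:**
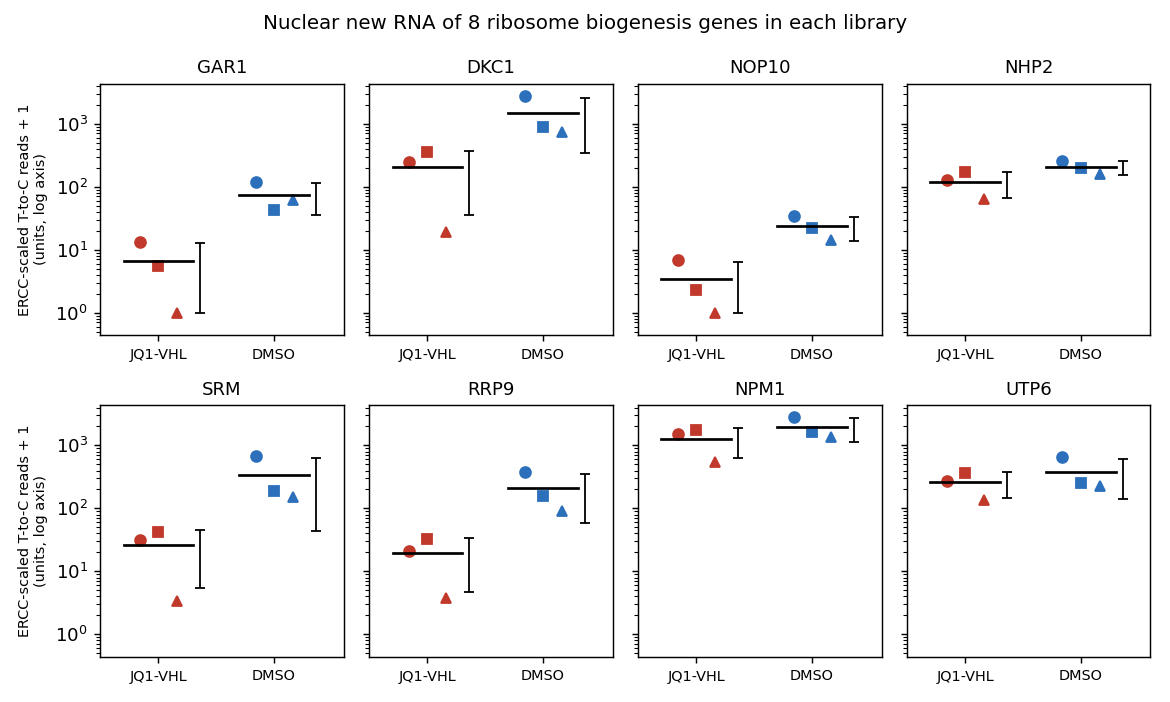
Nuclear units plus 1 of 8 members in each library, on a log axis, JQ1-VHL left and DMSO right. Circles, squares and triangles are replicates 1, 2 and 3, lines are group means and bars are 1 SD of 3 libraries, drawn down to no less than 0 units. GAR1, DKC1, NOP10, SRM and RRP9 have no JQ1-VHL library at the level of a DMSO library, while the groups of NHP2, NPM1 and UTP6 overlap. The share of all genes without overlap was not counted.

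Among the 16 tested factors of the small subunit, 5 fell on the ERCC scale: RRP9, UTP4, UTP15, WDR43 and BYSL. That is 31.25%, close to the 33.7% of all genes that fell. RRP9, a protein specific to the snoRNP of the U3 RNA, had 20.2, 32.3 and 2.85 nuclear units under JQ1-VHL, against 375, 156 and 89.3 under DMSO. The groups stood well apart, and RRP9 had the lowest change of this role at -3.65 ± 0.94 (limma adjusted p = 0.0029). It also fell relative to the typical gene, by 1.91 (SE 0.50, limma adjusted p = 0.00795). UTP4, UTP15 and WDR43 belong, with NOL11, HEATR1 and WDR75, to the subcomplex that binds the precursor first and is tied to its transcription. They changed by -3.14 ± 0.97, -2.68 ± 0.94 and -2.40 ± 0.85, and UTP4 alone of them also fell relative to the typical gene (-1.38 ± 0.46, limma adjusted p = 0.0298). BYSL, a late-acting factor of the particle, was at -2.14 ± 0.86 (limma adjusted p = 0.0407). These 5 calls on the ERCC scale ended without JQ1-VHL nuclear replicate 3, where the changes were -2.72 (RRP9) to -1.08 (BYSL) with limma adjusted p from 0.0964 to 0.443, and without DMSO nuclear replicate 1, where they were -3.09 to -1.60 with limma adjusted p from 0.0702 to 0.259. UTP15 and BYSL also lost it without DMSO nuclear replicate 2 (limma adjusted p = 0.0518 and 0.0691).

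NOL11, the member of this role with the highest mean, had 869, 1188 and 308 nuclear units under JQ1-VHL and 2976, 1505 and 1389 under DMSO. The groups did not overlap, but its ERCC-scale change of -1.43 ± 0.79 was not called (limma adjusted p = 0.127), and relative to the typical gene it rose by 0.44 (SE 0.14, limma adjusted p = 0.0256). That rise was not called with edgeR and TMM scaling. UTP6, a protein of another subcomplex of the same processome, had 272, 365 and 137 units under JQ1-VHL and 646, 255 and 225 under DMSO. Its groups overlapped, and its ERCC-scale change of -0.48 ± 0.82 (limma adjusted p = 0.596) was the nearest to 0 of all members. Relative to the typical gene UTP6 rose by 1.39 (SE 0.21, limma adjusted p = 0.000169), and so did the helicase DDX10 (1.14 ± 0.17, limma adjusted p = 0.000131) and the scaffold UTP20 (0.99 ± 0.27, limma adjusted p = 0.0105). Per 100 nuclear reads of UTP6, RRP9 had 7.44, 8.83 and 2.08 reads under JQ1-VHL, against 58.0, 61.1 and 39.7 under DMSO. The groups were also apart in total RNA. In cytoplasmic RNA the ratio was 9.12, 7.35 and 3.05 under JQ1-VHL and 6.01, 6.31 and 7.50 under DMSO, which overlap. The remaining 7 tested factors of this role that were called on neither scale, among them UTP18, HEATR1 and RRP12, had ERCC-scale changes between -1.85 (WDR75) and -1.21 (RRP12).

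Of the 11 tested factors of the large subunit, RRP8, RRP1, NOP2, GNL3 and NOL9 fell on the ERCC scale (45.5%, beside 33.7% of all genes). RRP8, a methyltransferase of ribosomal RNA, had the lowest change, with 10.1, 11.6 and 0.475 nuclear units under JQ1-VHL and 81.9, 42.1 and 49.4 under DMSO. No JQ1-VHL library reached a DMSO library, and JQ1-VHL replicate 3 held 1 read. RRP8 changed by -3.26 ± 1.09 (limma adjusted p = 0.0173), RRP1 by -3.09 ± 1.01, the RNA methyltransferase NOP2 by -2.56 ± 0.94, the nucleolar GTPase GNL3 by -2.52 ± 0.85 and the RNA kinase NOL9 by -2.41 ± 0.97. After rescaling none of the 5 was called, at -1.82 (RRP8) to -0.61 (NOL9) with limma adjusted p from 0.0612 to 0.357. On the ERCC scale the 5 calls ended without JQ1-VHL nuclear replicate 3 (-2.32 to -1.31, limma adjusted p from 0.179 to 0.407) and without DMSO nuclear replicate 1 (-2.98 to -1.99, limma adjusted p from 0.122 to 0.224). NOP2 and NOL9 lost theirs without DMSO nuclear replicate 2 as well, and NOL9 without DMSO nuclear replicate 3.

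PES1 and WDR12 form, with BOP1, a complex needed to cut the precursor for the large subunit. PES1, the factor of this role with the highest mean, had 325, 452 and 99.3 nuclear units under JQ1-VHL and 1440.4, 655 and 556 under DMSO. Its groups did not overlap, yet its change of -1.72 ± 0.81 was not called (limma adjusted p = 0.0773), and after rescaling it was 0.15 ± 0.19 (limma adjusted p = 0.567). Interval 1 held 60.4% of the PES1 reads over all libraries, and the gene overlaps TCN2. The helicase DDX18 had 193, 256 and 94.6 units under JQ1-VHL and 513, 228 and 253 under DMSO, and only JQ1-VHL replicate 2 reached the DMSO range. DDX18 was at -0.88 ± 0.82 (limma adjusted p = 0.344), the highest of its role, and relative to the typical gene it rose by 0.98 (SE 0.18, limma adjusted p = 0.000615). DDX56, another helicase, rose on that measure by 0.72 (SE 0.22, limma adjusted p = 0.018). That call was lost without JQ1-VHL nuclear replicate 1, DMSO nuclear replicate 2 or DMSO nuclear replicate 3, and with edgeR and TMM scaling.

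Among the 6 proteins that shape the nucleolus or act with RNA polymerase I, MYBBP1A and NOLC1 fell on the ERCC scale. That is 33.3%, beside 33.7% of all genes. MYBBP1A, a nucleolar protein known to restrain that polymerase, had 12.8, 6.46 and 3.80 nuclear units under JQ1-VHL and 183, 52.2 and 38.6 under DMSO, without overlap. It changed by -3.20 ± 1.08 (limma adjusted p = 0.0173) and by -1.47 ± 0.55 after rescaling (limma adjusted p = 0.0489). NOLC1, a chaperone of snoRNPs, changed by -2.38 ± 0.89 (limma adjusted p = 0.029). Neither ERCC-scale call outlasted the omission of JQ1-VHL nuclear replicate 3 (-2.85 and -1.39, limma adjusted p = 0.133 and 0.347) or of DMSO nuclear replicate 1 (-2.54 and -1.66, limma adjusted p = 0.167 and 0.259). The rescaled call of MYBBP1A was lost in 10 of the 18 fits that each left out 1 library.

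NPM1, nucleophosmin, the main protein of the outer nucleolar layer, had the most reads of all members. Its nuclear units were 1543, 1734 and 547 under JQ1-VHL and 2848, 1631 and 1342 under DMSO, with JQ1-VHL replicates 1 and 2 inside the DMSO range. NPM1 was at -0.70 ± 0.77 on the ERCC scale (limma adjusted p = 0.428), and relative to the typical gene it rose by 1.18 (SE 0.18, limma adjusted p = 0.000132), a call that held whichever library was left out. The gene has 49 named pseudogenes, and where the authors' counting placed reads that fit more than one copy is not given in the sources used here. The helicase DDX21 rose by 0.72 on the rescaled measure (SE 0.21, limma adjusted p = 0.0168). That call was lost without DMSO nuclear replicate 2 or 3, and with edgeR and TMM scaling. NCL, nucleolin, and TCOF1, a cofactor of RNA polymerase I, were called on neither scale, at -1.34 ± 0.81 and -1.59 ± 0.83 on the ERCC scale.

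SRM, spermidine synthase, makes a polyamine and stands in the list as a metabolic gene rather than a ribosome factor. It had 30.3, 42.0 and 2.38 nuclear units under JQ1-VHL, against 684, 186 and 152 under DMSO. Every JQ1-VHL library was below every DMSO library by a wide gap, and DMSO replicate 1 stood above its group. SRM fell by 4.03 on the log2 scale (SE 0.92, limma adjusted p = 0.000871), and by 2.30 relative to the typical gene (SE 0.50, limma adjusted p = 0.00227). The ERCC-scale change was -2.88 without JQ1-VHL nuclear replicate 3, where it was no longer called (limma adjusted p = 0.069), and the rescaled call held in all 18 fits that left out a library. Per 100 nuclear reads of NPM1, SRM had 1.96, 2.42 and 0.434 reads under JQ1-VHL, against 24.0, 11.4 and 11.3 under DMSO.

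Other lists of the pathway were read from the same nuclear fit. For all genes, as above, 33.7% fell on the ERCC scale with a median of -1.82, and after rescaling 18.2% rose and 12.6% fell with a median of -0.01. Of 76 tested further ribosome biogenesis genes, 31 (40.8%) fell on the ERCC scale and 0 rose, with a median of -2.01. After rescaling 14 of them (18.4%) rose and 6 (7.89%) fell, with a median of -0.19. Of 14 subunits and cofactors of RNA polymerase I, 7 fell on the ERCC scale, with a median of -2.17; POLR1A, its largest subunit, changed by -2.71 ± 0.96 (limma adjusted p = 0.022). After rescaling 1 of the 14 rose and 3 fell. Of 64 cytosolic ribosomal protein genes, the products that these factors assemble, 2 (3.12%) fell on the ERCC scale, with a median of -0.68, and after rescaling 41 (64.1%) rose and 0 fell, with a median of 1.19. Of MYC and 9 genes of its partner network, 5 fell on the ERCC scale. MYC remained called without JQ1-VHL nuclear replicate 3 (-5.01, limma adjusted p = 0.00123).

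The rule for the list did not use gene structure. In GENCODE 29, 8 of the 41 tested members held annotated snoRNA genes, 26 in all, against 196 of 9328 tested protein-coding genes (19.5% against 2.10%). These hosts were NOP56, NOP58, DKC1, NOL11, WDR43, TSR1, GNL3 and NCL, so some of the genes that encode snoRNP proteins also carry snoRNAs. Of the 8 hosts, 3 fell in nuclear RNA on the ERCC scale, with a median of -1.60, and of the 33 other members 14 fell, with a median of -1.74. The members' genes were shorter than those of all tested protein-coding genes, with a median of 24022 bases against 36941, and had 15 merged exon blocks against 12. Another protein-coding gene overlapped 11 of the tested members. The strand counted is not stated, so reads of such pairs may not be separable. Without those 11, 12 of 30 members fell in nuclear RNA on the ERCC scale, with a median of -1.73.

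Total new RNA of the members changed less on the ERCC scale. By limma 0 of 41 rose and 1 fell, NOP10, beside 2.79% of all genes that fell, and 3 members had an unadjusted p under 0.05. The median log2 change was -0.47 for the members and -0.49 for all genes. In the same-numbered pairs the members' median was -1.48, 0.23 and 0.05, so replicate 1 differed in direction from the others. NOP10 had 4.12, 0 and 0 units under JQ1-VHL, from 3, 0 and 0 reads, and 90.6, 27.6 and 27.4 units under DMSO. Over the 3 libraries of each group, its share of reads under JQ1-VHL was 0.0251 of that under DMSO (exact conditional 95% interval 0.00511 to 0.0750, for counting error only). Its fitted log2 change of -4.61 ± 1.13 (limma adjusted p = 0.00918) depends on the pseudocount, and the call was lost without DMSO total replicate 1, JQ1-VHL total replicate 2 or JQ1-VHL total replicate 3 (limma adjusted p = 0.135, 0.0759 and 0.126). At the other end NHP2 had 2222, 1918 and 1561 units under JQ1-VHL and 2723, 696 and 806 under DMSO. Its change of 0.71 ± 0.81 was not called (limma adjusted p = 0.837), with DMSO replicate 1 above all JQ1-VHL libraries and the other DMSO libraries below them.

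Relative to the typical gene, 8 members rose and 10 fell in total RNA, beside 12.2% and 18.4% of all genes. The size factors left the median total log2 change at -0.19 for all genes and -0.17 for the members. The typical gene was thus not at 0 in this fraction. Those that rose were NHP2, NPM1, DDX10, NOP58, NOL6, NOP56, DDX56 and UTP6, and NHP2 rose by 1.01 (SE 0.29, limma adjusted p = 0.0168). Those that fell were NOP10, DKC1, RRP1, SRM, NOL9, GNL3, FBL, NOL10, UTP15 and WDR43. NHP2, NPM1, DDX10, NOP58, NOP56, DDX56 and UTP6 thus rose, and NOP10, DKC1 and SRM fell, in total as in nuclear RNA. Total RNA includes nuclear RNA and both were fitted together, so the 2 fractions are not independent. The share of all genes called in both was not counted. The counts rested on single libraries, with 7 to 10 members called without any 1 of the 6 total libraries, and more rises than falls without DMSO total replicate 1 (7 and 3), without JQ1-VHL total replicate 3 (5 and 2) or without DMSO cytoplasmic replicate 3 (11 and 10). Over all genes those 3 omissions gave 730, 609 and 1511 higher and 1106, 936 and 2085 lower, in that order. With edgeR and TMM scaling, 13 rose and 7 fell, beside 21.3% and 16.1% of all genes. The medians were then 0.06 for the members and 0.05 for all genes.

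Cytoplasmic new RNA of the members gave 0 calls in either direction by limma on the ERCC scale, beside 3.67% of all genes lower and 0.226% higher. An unadjusted p under 0.05 was reached by 2 members, and edgeR on the recovered reads with the ERCC scale also called 0, whereas edgeR with TMM scaling called 9 higher and 3 lower, beside 15.0% and 14.3% of all genes. The median log2 change was 0.0092 for the members and -0.02 for all genes. The DMSO cytoplasmic libraries differed widely from each other, and in the same-numbered pairs the members' median log2 change was -0.19, 2.45 and -2.03. RRP8 had the lowest change, with 20.9, 15.1 and 0 units under JQ1-VHL and 54.5, 10.5 and 110 units under DMSO (-2.55 ± 1.09, limma adjusted p = 0.211). UTP20, a scaffold of the processome, had the highest, with 369, 424 and 198 units under JQ1-VHL and 403, 48.0 and 273 under DMSO (0.84 ± 0.86, limma adjusted p = 0.873). In both genes the groups overlapped. Without DMSO cytoplasmic replicate 2, 2 members were called lower, beside 1257 of 10191 genes. RRP8 was among these members (-3.48, limma adjusted p = 0.0309).

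Relative to the typical gene, 7 members rose and 3 fell in cytoplasmic RNA, beside 14.8% and 15.9% of all genes. The rescaled median was 0.08 for the members and 0.05 for all genes. UTP20, TCOF1, NOP56, DDX10, NPM1, PES1 and NOL11 rose, and RRP8, NOP10 and NOLC1 fell. UTP20 rose by 0.91 (SE 0.27, limma adjusted p = 0.0173), and RRP8 fell by 2.56 (SE 0.82, limma adjusted p = 0.0244). Without JQ1-VHL cytoplasmic replicate 2 the falls outnumbered the rises, with 4 higher and 5 lower, beside 1268 and 1626 of 10191 genes. With the replicate number as a block, 11 rose and 7 fell, beside 1788 and 1831 of 10191 genes.

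**Figure D3:**
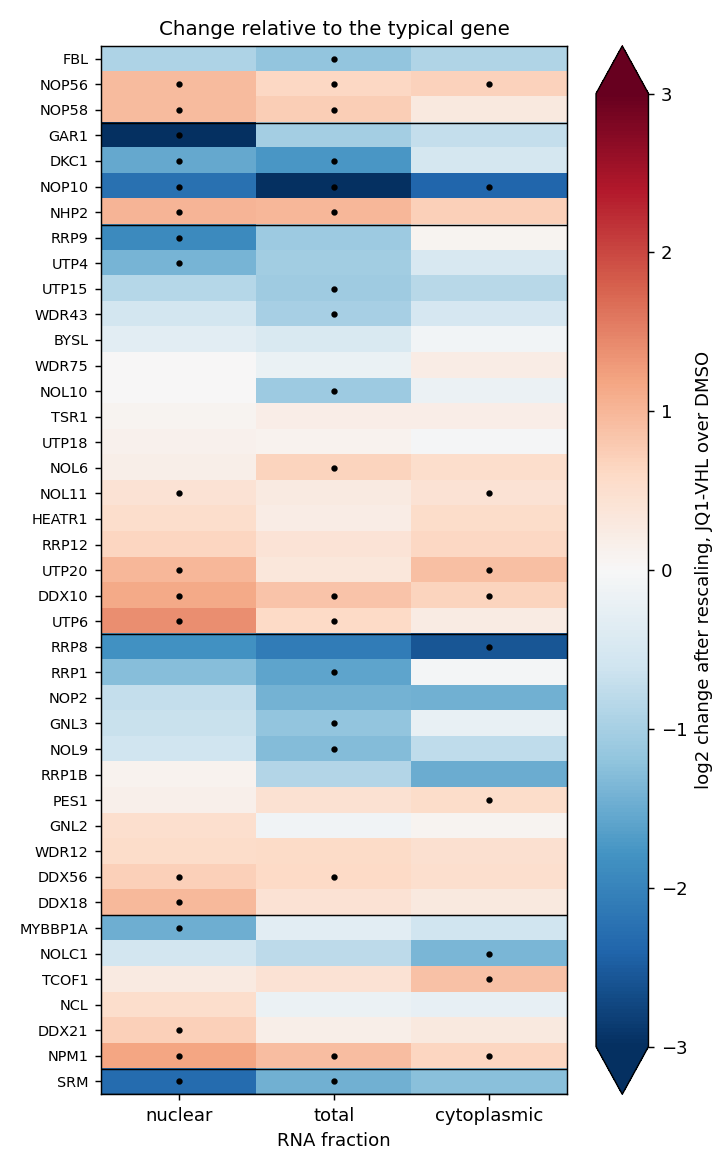
Rescaled log2 change of the 41 tested members, JQ1-VHL over DMSO, in nuclear, total and cytoplasmic new RNA, with blue for lower and red for higher, and colours saturated at 3 in either direction. Dots mark changes past the limma threshold. NOP56, DDX10 and NPM1 are marked higher and NOP10 lower in all 3 fractions.

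Whether the nucleus changed more than the cytoplasm was tested directly as the nuclear minus the cytoplasmic log2 effect. All 41 differences were negative on the ERCC scale, with a median of -1.72 beside -1.60 for all genes. Limma called 0 members, as it did 0.0% of all genes; 6 members had an unadjusted p under 0.05, and both edgeR fits called 0. RRP9 had the lowest difference (-3.66 ± 1.33, limma adjusted p = 0.28). Its cytoplasmic units were 207, 163 and 32.1 under JQ1-VHL and 107, 24.9 and 397 under DMSO, which overlap, whereas its nuclear groups did not. RRP1B had the highest difference (-0.20 ± 1.37, limma adjusted p = 0.924). After rescaling 1 member was called, UTP6, with a larger rise in the nucleus (limma adjusted p = 0.047), beside 1.44% of all genes higher. The call held in 2 of the 18 fits that left out 1 library.

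The members differed in how their new RNA was divided between nucleus and cytoplasm. Here nuclear units are set against cytoplasmic units, both per mass of RNA, and these comparisons use the same libraries as those above. Under JQ1-VHL 24 of 41 members were lower in the nucleus and 0 higher, beside 28.8% of all genes lower and 3.01% higher. The members' median log2 difference was -2.56, against -0.82 for all genes. Without JQ1-VHL nuclear replicate 3, 14 members were called, all lower, beside 1967 of 10191 genes lower and 609 higher. NHP2 had the lowest, with 127, 169 and 62.2 nuclear units and 4312, 5831 and 3179 cytoplasmic units under JQ1-VHL (-5.28 ± 0.81, limma adjusted p = 2.17e-08). The fractions stood far apart in every library. RRP1B had the highest, with 82.4, 103 and 16.2 nuclear units and 29.3, 60.2 and 1.40 cytoplasmic units, which overlap (1.69 ± 0.97, limma adjusted p = 0.177).

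Under DMSO 1 of 41 members was higher in the nucleus and 5 lower, beside 14.7% of all genes higher and 5.92% lower. The median was -0.50 for the members and 0.63 for all genes. NHP2 again had the lowest value, with 252, 199 and 157 nuclear units and 2838, 579.9 and 12719 cytoplasmic units under DMSO (-3.79 ± 0.81, limma adjusted p = 0.000302). NPM1, DDX10, DDX18 and UTP6 were also lower in the nucleus, at -2.81 to -2.21. RRP1 was the member higher in the nucleus, with 460.2, 167 and 168 nuclear units and 44.6, 1.66 and 44.1 cytoplasmic units (3.74 ± 1.01, limma adjusted p = 0.0038). Every nuclear library of RRP1 was above every cytoplasmic one, but the call was lost without DMSO nuclear replicate 1 (limma adjusted p = 0.0524) or DMSO cytoplasmic replicate 2 (2.38, limma adjusted p = 0.0592). The counts depended on single libraries. Without DMSO cytoplasmic replicate 2, 15 members were called, all lower, beside 1863 of 10191 genes lower and 884 higher. Without DMSO cytoplasmic replicate 1, DMSO nuclear replicate 2 or DMSO nuclear replicate 3, 3 were called. Over all genes these fits gave 1651, 931 and 1097 higher and 339, 267 and 259 lower, in that order. Without DMSO cytoplasmic replicate 3, 3 were higher and 2 lower, beside 1847 and 209 of 10191 genes.

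After rescaling, calls were made in both directions. Under JQ1-VHL 5 members were higher and 20 lower in the nucleus, beside 38.7% and 26.0% of all genes, with a median of -1.03 against 0.65 for all genes. Under DMSO 8 were higher and 18 lower, beside 33.0% and 23.8%, with a median of -0.66 against 0.48. GNL3, NOL9, RRP1, NOP2 and RRP1B were the 5 higher in the nucleus under JQ1-VHL and were also higher under DMSO, where UTP4, MYBBP1A and DKC1 joined them. These 5 are factors of the large subunit, but 4 other factors of that role, PES1, DDX18, WDR12 and DDX56, were lower in the nucleus under both treatments, so the role did not divide one way. The log2 difference of NHP2 was -3.64 under JQ1-VHL (SE 0.29, limma adjusted p = 7.75e-09), and -3.95 under DMSO (SE 0.29, limma adjusted p = 2.35e-09). That of RRP1B was 3.34 under JQ1-VHL (SE 0.66, limma adjusted p = 0.000274), and 1.72 under DMSO (SE 0.66, limma adjusted p = 0.0337). JQ1-VHL cytoplasmic replicate 3 held only 1 read of RRP1B. With edgeR and TMM scaling, 6 were higher and 21 lower under JQ1-VHL, beside 36.7% and 26.4% of all genes, and 8 were higher and 18 lower under DMSO, beside 36.6% and 23.1%.

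**Figure D4:**
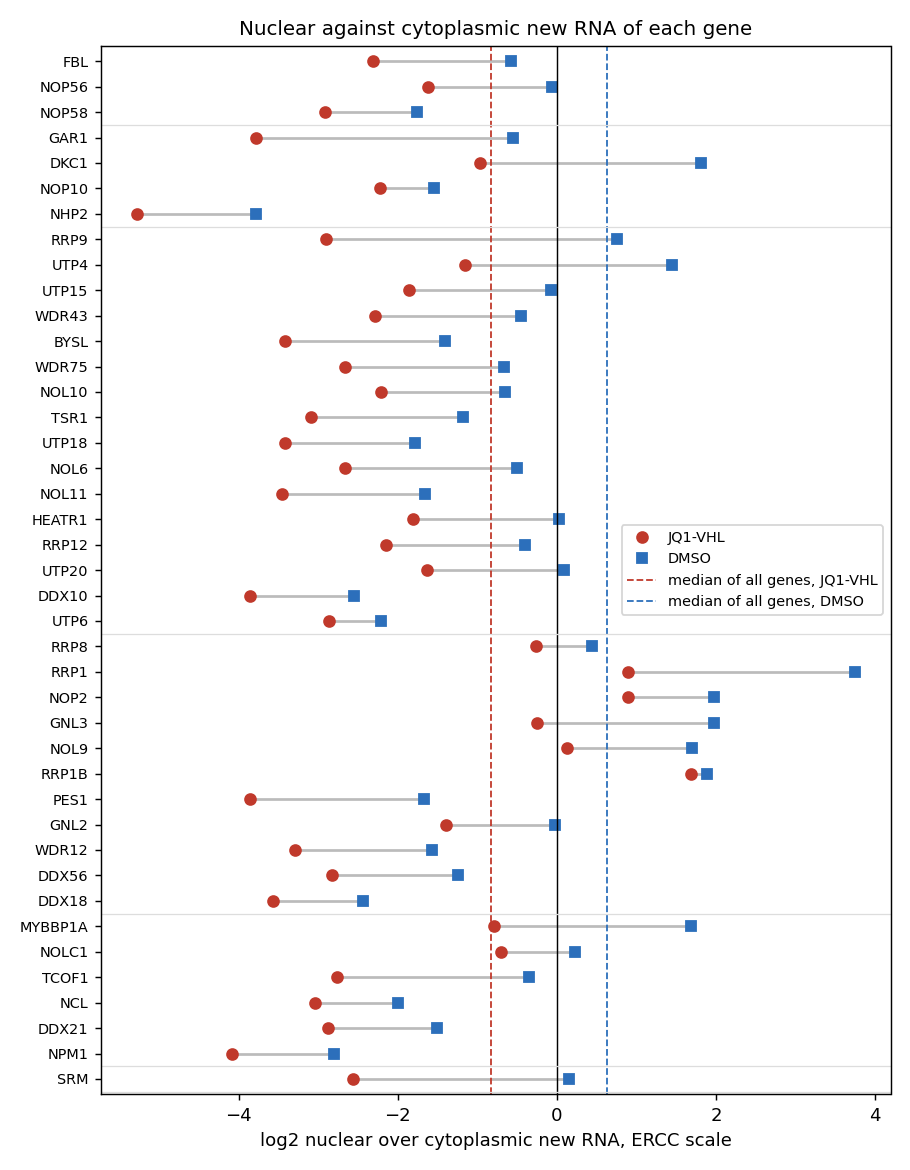
Nuclear over cytoplasmic new RNA of the 41 tested members on the log2 ERCC scale, with JQ1-VHL as red circles and DMSO as blue squares. Dashed lines are the medians of all genes, -0.82 under JQ1-VHL and 0.63 under DMSO. Every JQ1-VHL circle lies left of its DMSO square, with NHP2 at the far left (-5.28 and -3.79) and RRP1 and RRP1B at the right.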

How the data were processed

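Newly made polyadenylated RNA was measured by SLAM-seq in 18 libraries, 3 for each of 6 groups. The deposited table gives, per its name, ERCC-normalised T-to-C counts, recorded here as signal; per the submitters' processing notes, the tools were HISAT2, HTSeq, DESeq2, bcl2fastq and Trimmomatic 0.39, with dm3 and GRCh37 (hg19) among the builds. How T-to-C reads, intervals and strand were counted is not given in the sources used here. In 22 of the 42 members the highest interval number equals the gaps between merged exons, and a read given to more than one interval enters a gene's sum more than once. Each deposited signal value came out as a whole number of reads (tolerance 0.01 of a read, 100% of values), so reads were recovered. Intervals on reads cover counting error only, since copies made by PCR were not marked.

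Intervals were summed per gene ID (12512 of 12755 IDs had a symbol). The test was limma 3.58.1 in R 4.3.3 on log2(value + 1), using the trend and robust options, fitted over all 18 libraries with a mean for each group, two-sided, adjusted by Benjamini-Hochberg over 10191 genes at 0.05. A fold change on this scale understates the change of low genes. Alternatives were a pseudocount of 0.1, no filter, rescaling, the replicate number as a block, edgeR 4.0.16 on recovered reads with TMM or ERCC scale, the interval with the highest mean, and leaving out each library; the combination of rescaling with the block or with a left-out library was chosen after seeing the data. Pairing was taken from the replicate number that ends each sample title, and that number also served as the block. The titles do not say that libraries of the same number were made together. JQ1-VHL and DMSO libraries of the same number had deviations from their group means that correlated at 0.27, -0.14 and 0.29 in nuclear, 0.22, 0.08 and 0.16 in total and 0.06, -0.05 and 0.02 in cytoplasmic RNA.

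Full statistics are given, within each role, for the member with the highest mean and those with the lowest and highest nuclear change, for the lowest and highest member in other comparisons, and for SRM and MYC; other members are given by counts and ranges, and those called were named after their values were seen. Members and lists were chosen with earlier results of these data known. The scripts were tested on simulated data.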

Additional observations from a re-analysis of the deposited data

Results flagged for a closer look

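UTP6 differed between fractions. After rescaling, its nuclear effect of JQ1-VHL exceeded its cytoplasmic effect by 1.15 on the log2 scale (SE 0.30, limma adjusted p = 0.047). Its rescaled nuclear units were 559, 545 and 786 under JQ1-VHL and 277, 222 and 215 under DMSO, and its rescaled cytoplasmic units were 1636, 1404 and 1336 under JQ1-VHL and 947, 1118 and 1775 under DMSO, where DMSO replicate 3 stood highest. The difference was called in 2 of the 18 fits that left out 1 library, with limma adjusted p up to 0.125 (without DMSO nuclear replicate 2). On the ERCC scale it was -0.65 (limma adjusted p = 0.699).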

How the results depend on the processing

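On the ERCC scale, a pseudocount of 0.1, no filter and the replicate block left each named result on its side of the threshold, except NOL9 at the pseudocount of 0.1. With the replicate block the members called were 18 (nuclear RNA), 1 (total RNA) and 0 (cytoplasmic RNA), and 0 for the nuclear minus cytoplasmic effect. For nuclear against cytoplasmic RNA they were 25, all lower, under JQ1-VHL, beside 3165 of 10191 genes lower and 455 higher. Under DMSO they were 1 higher and 6 lower, beside 1877 and 710. Over all 10191 genes the block called 4238 lower in nuclear RNA, beside 3435 without it. In total and cytoplasmic RNA it called 549 and 579 genes lower.

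After rescaling 18 members were called in nuclear RNA, 18 in total RNA, 10 in cytoplasmic RNA (18 with the block as well), 1 for the nuclear minus cytoplasmic effect and 26 for nuclear against cytoplasmic RNA under DMSO. EdgeR with TMM gave 20 in total RNA, 12 in cytoplasmic RNA and 26 under DMSO, with the shares of all genes given above. EdgeR on the ERCC scale gave 1 higher and 9 lower under DMSO, beside 911 and 1015 of 10191 genes. The interval with the highest mean gave 8 lower in nuclear RNA and 1 lower in cytoplasmic RNA, beside 2517 and 295 of 10191 genes. Under DMSO it gave 6 higher and 15 lower, beside 2408 and 1394. Nuclear changes were positive in 24 of 41 members after rescaling and in 17 by TMM. For the 11 called higher after rescaling and for PES1 the values were, rescaled and by TMM, UTP6 1.39 and 1.21, NPM1 1.18 and 1.00, DDX10 1.14 and 0.97, NHP2 1.01 and 0.81, UTP20 0.99 and 0.82, DDX18 0.98 and 0.81, NOP58 0.95 and 0.77, NOP56 0.94 and 0.77, DDX56 0.72 and 0.56, DDX21 0.72 and 0.53, and NOL11 0.44 and 0.26, and PES1 0.15 rescaled. The cause was not tested. By TMM, DDX21, DDX56 and NOL11 were not called. The RRP1B difference became 1.61 rescaled and 0.74 by TMM.

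Leaving out 1 library gave 0 to 25 nuclear calls (12 to 21 rescaled), 0 to 1 in total RNA (7 to 22), 0 to 2 in cytoplasmic RNA (7 to 14), 0 to 0 for the difference (0 to 1), 14 to 29 for nuclear against cytoplasmic RNA under JQ1-VHL (24 to 29) and 3 to 15 under DMSO (22 to 27). The calls over all genes moved too. In nuclear RNA on the ERCC scale, 228 of 10191 genes were lower without JQ1-VHL nuclear replicate 3, and 5308 without DMSO cytoplasmic replicate 2. The rescaled count of members was 9 in total RNA without DMSO total replicate 3 or JQ1-VHL total replicate 2. It was also 9 in cytoplasmic RNA without JQ1-VHL cytoplasmic replicate 2. The omissions named for total RNA gave 788 and 674 of 10191 genes higher and 1229 and 1273 lower, in that order. The cytoplasmic change of UTP20 ran from -0.077 to 1.44, and the RRP1B difference from -1.59 to 0.75. Low reads limit NOP10, GAR1 and RRP8. JQ1-VHL nuclear replicate 3 held 5 reads of SRM and 6 of RRP9. RRP1B had 1 read in JQ1-VHL cytoplasmic replicate 3, and RRP1 had 3 in DMSO cytoplasmic replicate 2.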
